A study of Mus musculus with 28 samples.

Results

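The regions described here carried called trimethylation of histone H3 at lysine 9 (H3K9me3) in osteocyte-like IDG-SW3 cells and had no called counterpart at the osteoblast-like stage. They are the regions of the day-35 H3K9me3 list on chromosomes 1 to 19 that share no base with a region of the day-3 list, leaving out 2 intervals of chromosome 10 (67.4 to 68.0 Mb and 115.7 to 117.5 Mb, mm9). The regions were thus chosen by the called regions of the 2 H3K9me3 lists, and where they start and end, their score and their width belong to that choice. The rule found 21490 such regions among 33784 autosomal day-35 regions outside the intervals, which is 63.6% (95% Wilson interval 63.1 to 64.1), out of 937290 regions in all 26 lists of the study. A further 83 regions met the rule inside the intervals. For comparison, 12294 autosomal day-35 regions overlapped a day-3 region and are called both-day regions, and 19212 of 31368 day-3 regions overlapped no day-35 region (61.2%) and are called day-3-only regions.

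IDG-SW3 is an immortalized mouse bone cell line that grows at 33 °C with interferon gamma and turns into osteocyte-like cells at 37 °C in osteogenic medium without it, and it carries a GFP reporter driven by the Dmp1 promoter. Chromatin immunoprecipitation with sequencing was done for 9 histone marks at day 3 and at day 35 in basal, untreated cells, with 1 library per mark and day. The vitamin D receptor (VDR) and the retinoid X receptor (RXR) were profiled at day 35 after 3 h of vehicle or 100 nM 1,25(OH)2D3, the active vitamin D hormone, with 2 replicates per group. All libraries come from this 1 line, so values describe these cultures and not bone tissue. With 1 H3K9me3 library per day, no difference between the days has a replicate check, and a change of stage and a property of either library cannot be told apart. Intervals cover counting error only, with the read depth of each library not given in the sources used here. Markers were checked against the labelled cell type: 12 of 18 osteoblast genes and 6 of 13 osteocyte genes had H3K4me3, a mark of active promoters, within 1 kb of their start at day 35, and 18 of 18 and 11 of 13 had H3K27Ac, a mark of active promoters and enhancers. At day 3 the H3K4me3 counts were 12 and 7 and the H3K27Ac counts 17 and 11, so these counts differed little between the days. Over all autosomal protein-coding genes the day-35 shares were 40.6% for H3K4me3 and 56.9% for H3K27Ac. The marker counts therefore do not establish the stage of the cells. In other lineages H3K4me3 was present at day 35 in 3 of 9 chondrocyte, 1 of 8 adipocyte, 1 of 9 haematopoietic and osteoclast, 0 of 8 myogenic, 0 of 6 endothelial and 0 of 8 neural genes, and H3K27Ac in 5, 6, 3, 0, 2 and 3 of them.

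H3K9me3 is written by SETDB1 and the SUV39H enzymes, is bound by HP1 proteins and marks compact, silent chromatin. It covers pericentromeric satellites and transposons, clusters of zinc finger genes and imprinted regions, and in differentiated cells also blocks of genes that belong to other lineages. Active genes carry other marks: H3K4me3 at promoters, H3K4me1 at enhancers, acetylation at both, and H3K36me3 along transcribed gene bodies.

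The 200 bases at the centre of 5 strongly scored regions show the kind of sequence that lay under the mark. The score is the authors' own value for each region, its scale is not stated, and it is used only to rank regions within a list. The sequences are from the mm9 assembly, plus strand, 5′ to 3′, with CpG dinucleotides in capitals. The first is the highest-scoring region of all, the next 2 have ranks 2 and 5, and the others are the widest region and one inside the calcitonin receptor gene.
near the start of chromosome 9, chr9:3005262-3005461: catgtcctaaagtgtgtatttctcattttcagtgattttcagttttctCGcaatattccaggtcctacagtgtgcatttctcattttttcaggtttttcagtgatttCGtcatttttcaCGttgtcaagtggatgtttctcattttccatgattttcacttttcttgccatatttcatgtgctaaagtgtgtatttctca
near Dux, chr10:57675370-57675569: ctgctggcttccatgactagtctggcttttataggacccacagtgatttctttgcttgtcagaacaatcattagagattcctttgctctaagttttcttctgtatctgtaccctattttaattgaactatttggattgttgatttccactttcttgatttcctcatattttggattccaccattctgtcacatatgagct
between Tnik and Slc2a2, chr3:28579760-28579959: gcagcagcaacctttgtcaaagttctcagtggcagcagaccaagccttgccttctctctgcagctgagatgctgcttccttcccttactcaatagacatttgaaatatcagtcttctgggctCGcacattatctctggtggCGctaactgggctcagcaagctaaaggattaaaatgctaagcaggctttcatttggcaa
near Olfr19, chr16:16681717-16681916: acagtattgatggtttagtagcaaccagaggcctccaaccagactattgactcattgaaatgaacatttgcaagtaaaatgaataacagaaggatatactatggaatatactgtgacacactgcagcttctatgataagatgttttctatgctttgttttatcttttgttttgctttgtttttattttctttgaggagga
Calcr intron, chr6:3690368-3690567: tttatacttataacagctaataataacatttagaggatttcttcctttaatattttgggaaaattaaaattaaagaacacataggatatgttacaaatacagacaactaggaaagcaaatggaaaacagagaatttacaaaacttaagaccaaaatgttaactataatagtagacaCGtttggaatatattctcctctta
The 5 windows held between 0 and 3 CpGs, and their GC content lay between 26% (Calcr) and 47.5% (between Tnik and Slc2a2). Over all 21490 regions the median GC content was 40.5% (interval 40.4 to 40.6), against 41.7% in both-day regions, 42.2% in day-3-only regions and 41.8% in 23923 windows of 500 bp set every 100 kb along the autosomes, called grid windows here. The CpG content relative to that expected from the base composition had a median of 0.148, against 0.153, 0.169 and 0.157. Most of the called sequence occurred once in the genome. Of 9 evenly spaced 32-base words per region, 95.2% occurred once, against 93.1% in both-day regions, 92.7% in day-3-only regions and 84.9% in grid windows. No word occurred once in 4.56% of grid windows, against 0.00931% of the regions, 0% of both-day and 0.00521% of day-3-only regions. Regions are called from aligned reads, and how reads with several matches were treated is not known. Repeated sequence may thus be missing from every called class. Whether H3K9me3 also lay there was not tested. The highest-scoring region, near the start of chromosome 9, stood apart: 1 of its 8 words occurred once, and the median word had 21.5 copies. At the region near Dux all 8 words occurred once, and at the Calcr intron region all 9 did. The 24-base word most often shared among the regions was the dinucleotide repeat ACACACACACACACACACACACAC, present in 4.49% of them and in 9.61% of both-day regions, 5.23% of day-3-only regions and 4.16% of grid windows; regions and windows differ in width, so these shares are not per base.

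The regions were small and scored low beside both-day regions. Together they covered 24.1 Mb, against 25.8 Mb for both-day and 20.04 Mb for day-3-only regions. Their median width was 641 bp (range 500 to 18863 bp), and 43.7% (43.0 to 44.3) had the minimum width of 500 bp, against 1157.5 bp and 17.6% for both-day regions. Day-3-only regions were also small, with a median of 685 bp and 35.4% at 500 bp. Their median score was 17.9, against 44.4 for both-day regions. Among day-35 regions the share without a day-3 counterpart was 84.1%, 74.5%, 60.4% and 36.5% in 4 score classes from the lowest to the highest, 24.6% of the 4150 regions scoring at least 100, and 11.7% of the 1456 scoring at least 200. By width the share was 81.2% at 500 bp and 37.7% at 3 kb or more, so that 1474 regions of 3 kb or more remained in the set. In the day-3 list the day-3-only share likewise went from 77.9% in the lowest score class to 35.6% in the highest. The fall with score was thus not particular to day 35. These values are a description, since score and width belong to the contrast that chose the regions. The same rule applied to the other 8 marks gave day-35-only shares of 6.76% for H3K4me3, 19.7% for H3K4me1, 22.1% for H3K36me3, 23.7% for H4K5Ac, 24.4% for H3K27Ac, 25.2% for H4K20me1, 27.1% for H3K9Ac and 38.1% for H3K4me2.

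**Figure D1:**
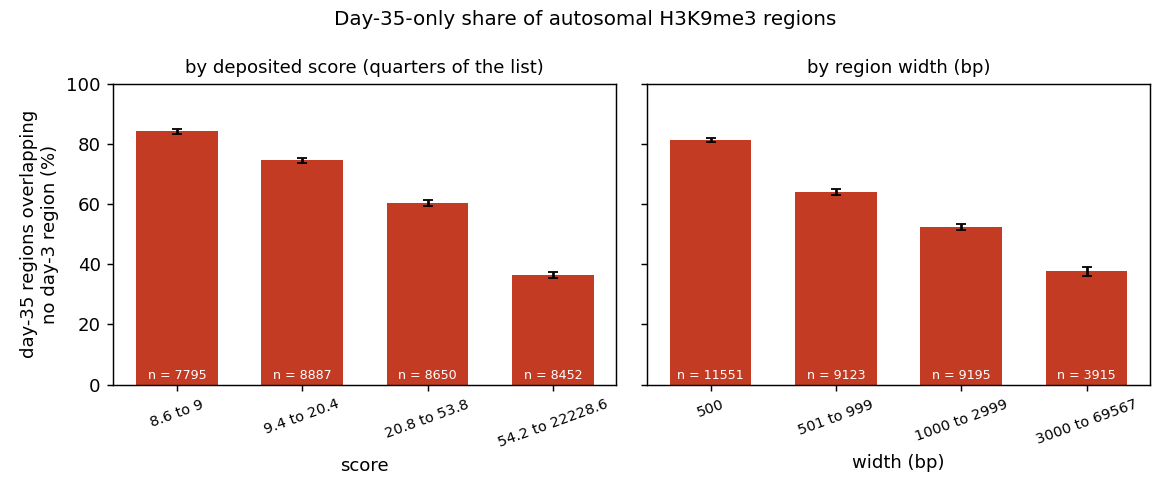
Percent of autosomal day-35 H3K9me3 regions that overlap no day-3 region (vertical axis), in 4 classes of the authors' score (left) and by region width in bp (right). Bars start at 0, error bars are 95% Wilson intervals and n is the number of day-35 regions; the share goes from 84.1% in the lowest score class to 36.5% in the highest.

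By score and width, many regions lay at the lower limit of the day-35 list. Of the day-35-only regions, 6557 scored from 8.6, the lowest score, to 9. The minimum width of 500 bp was found in 9384. By distance to a day-3 region, few lay at the edge of the rule. The median distance to the nearest day-3 region was 33.1 kb; 412 regions (1.92%) lay within 1 kb of one and 2532 (11.8%) within 5 kb. Just inside, a region at chr5:126253294-126253932 (score 17.5) abutted a day-3 region, and regions at chr1:187277228-187277727 and chr2:129787483-129787982 (both 8.6) lay 1 bp away. Just outside, regions at chr2:127737280-127737779 (8.6), chr3:153411299-153411798 (8.6) and chr6:127159993-127163377 (57.9) shared 3, 7 and 7 bp with a day-3 region. Of the both-day regions, 3053 (24.8%) had under 50% of their bases covered at day 3.

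Almost none of the regions carried another histone mark. Of the 21490, 495 (2.30%, interval 2.11 to 2.51) overlapped a region of any of the other 8 marks at either day, against 31.8% of grid windows, 26.1% of both-day regions and 57.2% of day-3-only regions. The rule did not use these marks. Among regions of exactly 500 bp the shares were 1.95%, 32.4% for both-day and 44.3% for day-3-only regions, so that both-day regions of this width lay close to the grid windows. H3K4me1, the enhancer mark, overlapped 0.903% of the regions at day 3 and 0.931% at day 35, against 16.3% and 16.2% of grid windows. H3K27Ac overlapped 0.275% and 0.279%, against 10.9% and 12.6% of grid windows. H3K4me3 overlapped 17 regions (0.0791%) and 16 (0.0745%), against 0.999% and 0.711%. H3K36me3, the mark of transcribed gene bodies, overlapped 0.205% at day 3 and 0.451% at day 35, against 13.3% and 12.7% of grid windows. Day-3-only regions stood at the other end for H3K36me3, with 34.9% at day 3 and 16.9% at day 35, and both-day regions between them with 14.5% and 6.32%. H3K4me2 overlapped 0.372% and 0.647%, against 4.66% and 6.78% of grid windows, and H4K5Ac 0.382% and 0.479%, against 14% and 15.3%. H3K9Ac overlapped 0.275% and 0.223%, against 6.01% and 6.37%, and H4K20me1 0.116% and 0.181%, against 9.82% and 10.8%. Any of the 8 marks lay on 257 regions (1.20%, 1.06 to 1.35) at day 3, where no H3K9me3 was called. At day 35 the count was 399 (1.86%, 1.68 to 2.05). A mark at day 3 and not at day 35 lay on 96 regions (0.447%), and the reverse held for 238 (1.11%). Among grid windows the same 2 shares were 2.72% and 4.74%, so the excess at day 35 was not particular to these regions. The nearest region of another mark at day 35 lay a median of 17.7 kb away, against 3.63 kb for both-day regions and 5.38 kb for grid windows.

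**Figure D2:**
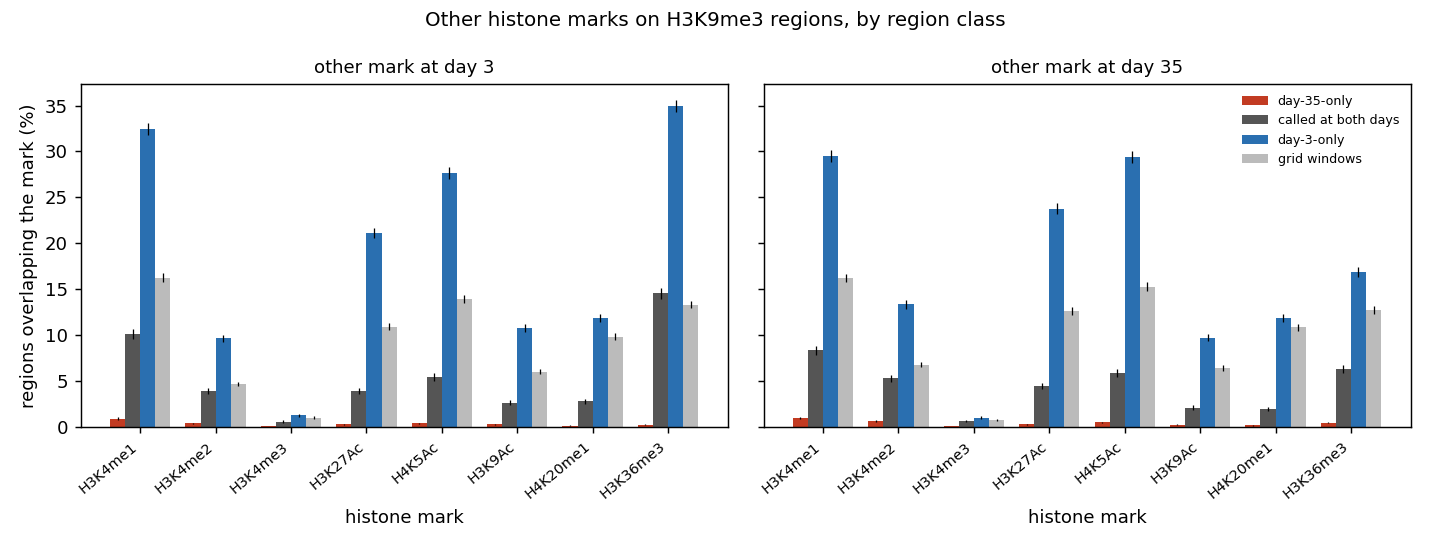
Percent of regions overlapping each of 8 other histone marks (vertical axis) at day 3 (left) and day 35 (right), for 21490 day-35-only, 12294 both-day and 19212 day-3-only H3K9me3 regions and 23923 grid windows. Error bars are 95% Wilson intervals; the day-35-only bars stay under 1% for each mark, and day-3-only bars reach 34.9% for H3K36me3 at day 3.

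A few regions were acetylated (H3K27Ac, H3K9Ac or H4K5Ac). Of the 21490, 53 had the acetylation called at day 3 and not at day 35, 69 at day 35 and not at day 3, and 53 at both days. The same split was not counted in the other region classes or in grid windows. Whether acetylation changed more or less often in these regions than elsewhere was therefore not tested. Among the first 53, by score after the repeated region of chromosome 9, were 2 in a gene-poor stretch of chromosome 3 (chr3:149205262-149215210 with a score of 286.6 and chr3:149192586-149198128 with 203.8), 1 in an intron of Myo6, an unconventional myosin (chr9:80199456-80202712, score 185.9), and 1 in an intron of Mecom, a transcription factor gene of blood stem cells (chr3:30398255-30400302, score 100.3). A second intronic region of Mecom (chr3:30404705-30406232, score 66.5) was acetylated at both days. The highest-scoring of the 69 were an intergenic region with its nearest start at Epha4, 648 kb away (chr1:76861274-76866098, score 158.6), and one in an intron of Sdk2, a cell adhesion gene (chr11:113826274-113829589, 148.8). These were chosen after their values were seen.

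Most of the regions lay between genes, as both-day regions did. By the position of the centre, 72.3% (71.7 to 72.9) were intergenic, 25.5% intronic, 0.731% in a coding exon, 0.400% in a UTR and 1.03% no further than 1 kb from a transcription start site (TSS). Both-day regions were close for the first 2 classes, with 70.0% intergenic and 24.9% intronic, and had 3.04% near a TSS. Grid windows gave 59.5%, 35.8%, 1.11%, 1.1% and 2.45%, and 60.1% of day-3-only regions were intergenic. To the closest protein-coding TSS the median distance was 63.1 kb, against 29.9 kb for both-day and 33.5 kb for day-3-only regions and 54.5 kb for grid windows. Of the 221 regions near a TSS, 4 overlapped H3K4me3 at day 3 and 1 at day 35. The strongest of them after chromosome 9 lay at Olfr213, an odorant receptor (chr6:116487354-116495262, score 274.0), Sycp2l, a meiotic chromosome axis gene of oocytes (chr13:41223326-41226279, 257.2), Krt2, an epidermal keratin (chr15:101644314-101650960, 192.8), and Krtap12-1, a hair keratin-associated protein (chr10:77180782-77185331, 173.7).

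Chromosomes differed in how many regions they held. Chromosome 19 had 16.6 regions per Mb of sequence, chromosome 3 had 15.2 and chromosome 8 had 13.4, while chromosome 14 had 3.49, chromosome 7 had 4.64 and chromosome 18 had 4.98. Both-day regions were likewise densest on chromosome 19 (9.55 per Mb) and sparsest on chromosome 14 (1.93). The day-35-only share of day-35 regions was 63.5% and 64.4% on these chromosomes, so the extremes were not particular to day-35-only regions. In 2380 bins of 1 Mb the median was 6 regions and the highest count was 62, and 275 bins had 0. The 291 bins with 20 or more (12.2% of bins) held 37.1% of the regions in these bins. The densest bin, at 53 to 54 Mb of chromosome 3 (62 regions), holds Lhfp, Stoml3, Frem2 and Ufm1 and the start of Trpc4. The next were at 65 to 66 Mb of chromosome 17 (55 regions, around Tmem232), 14 to 15 Mb of chromosome 19 (55, around Tle4) and 129 to 130 Mb of chromosome 2 (50, with Il1a, Il1b and Sirpa). Across bins, the number of day-35-only regions had a Pearson correlation of -0.08 (Spearman -0.02) with the number of gene starts and of -0.0012 (0.0075) with GC content. Both-day regions gave 0.25 (0.44) and 0.45 (0.52), and day-3-only regions 0.20 (0.42) and 0.43 (0.55). These are descriptions over 2380 neighbouring bins of the same 2 libraries.

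**Figure D3:**
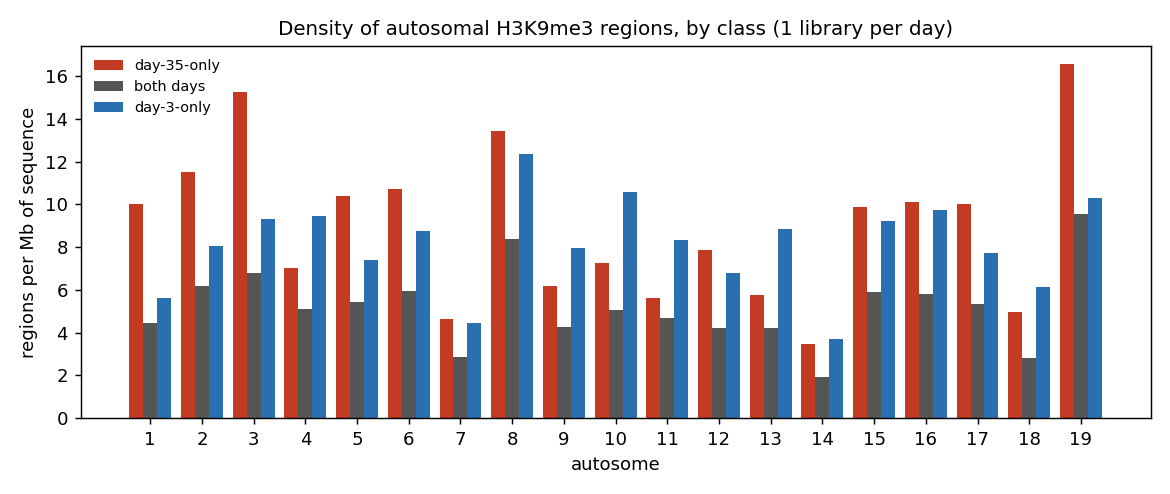
H3K9me3 regions per Mb of sequence (vertical axis) on each autosome, for day-35-only, both-day and day-3-only regions, from 1 library per day. Day-35-only density is highest on chromosome 19 (16.6 per Mb) and lowest on chromosome 14 (3.49 per Mb), as is both-day density (9.55 and 1.93 per Mb).

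Of 21281 autosomal protein-coding genes, 1965 held a day-35-only region in their body (9.23%), and both-day and day-3-only regions reached 11.2% and 20.5%. The genes reached were long, with a median of 67.6 kb against 15.6 kb for all genes, and most lacked marks of an active promoter. Of them, 7.12% had H3K4me3 within 1 kb of the TSS at day 3 and 5.24% at day 35, against 45.9% and 40.6% of all genes, and 20.7% and 16.9% had H3K27Ac there, against 58.5% and 56.9%. Genes with a both-day or a day-3-only region were also long, with medians of 54.5 and 59.8 kb. Of genes with a both-day region, 25.4% and 20.5% had H3K4me3 at the TSS at day 3 and day 35. With a day-3-only region the shares were 51.7% and 46.3%. Among the 908 genes of 200 kb or more, 424 held a region (median length 380 kb) and 484 did not (284 kb). Of the 424, 11.1% (8.44 to 14.4) had H3K4me3 at the TSS at day 3 and 7.78% at day 35, against 69.0% (64.8 to 73.0) and 62.8% of the 484. Of 188 genes of 10 kb or more with at least 10% of the body in day-35-only regions, 2 had H3K4me3 at the TSS at day 3 and 1 at day 35.

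The 20 genes with the most bases in day-35-only regions held between 29.4 and 68.2 kb of them. Tnik, a kinase of Wnt signalling and neurons, led with 28 regions and 68.2 kb, which is 16.5% of its body (chr3:28162136-28574780). Hpse2, a heparanase relative, followed with 38 regions and 59.9 kb. Tmc1, a subunit of the mechanotransduction channel of inner-ear hair cells, had 19 regions covering 45.0 kb, 26.3% of its body, and no both-day or day-3-only region there. A both-day region lay at -4.488 to -1.995 kb from its TSS, and H3K27Ac at day 35 spanned the TSS, from -1.229 to 0.448 kb. Other hair-cell genes were Myo3b, a myosin, with 41.4 kb, and Pcdh15, a cadherin of the tip link, with 48 regions and 31.3 kb. Cilium and sperm tail genes were Hydin (40.8 kb, beside 78.7 kb of both-day regions) and Spag16 (39.98 kb). Genes of neurons and secretion were Rims2 of the presynaptic active zone (42.4 kb), Stxbp5l, which acts in exocytosis (38.1 kb), and the neuronal collagen Col25a1 (32.1 kb). Ttn, the giant sarcomere protein of muscle, had 18 regions and 38.9 kb with no both-day region, and H3K36me3 on 2.99% of its body at day 3 and 7.32% at day 35. At day 35 this H3K36me3 lay at the far end, 258.2 to 304.7 kb from the TSS, and ran past the end of the 278.6 kb gene. The others were Trpc4, a cation channel (43.5 kb), Tmem232 (42.7 kb), D10Bwg1379e (39.4 kb), Fstl4 (38.3 kb), Calcr (36.2 kb), Ptpro, a receptor phosphatase (32.7 kb), Zmat4 (30.1 kb), Arfip1 and Fgfr2. Besides Hydin, several of these genes held much both-day H3K9me3 as well. Both-day regions covered 35.6 kb of Trpc4, 30.0 kb of Rims2, 23.8 kb of Tmem232, 22.2 kb of Hpse2, 19.5 kb of Fstl4 and 18.2 kb of Stxbp5l. The annotated models of Arfip1 (1391 kb) and Fgfr2 (3009 kb) enclose 5 and 31 other genes, so their 36.1 and 29.4 kb are uncertain. Apart from these 2, none of the 20 had H3K4me3 at its TSS at either day, and H3K36me3 covered 0% of the body at day 35 in each but Ttn. H3K4me1 and H3K27Ac were present on several of the 20: at Tnik H3K4me1 covered 3.22% at day 3 and 7.27% at day 35, at Fstl4 0.267% and 5.58%, at Col25a1 0.17% and 3.77%, at Spag16 6.2% and 4.92%, and H3K27Ac covered 0.726% and 3.03% of Myo3b.

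**Figure D4:**
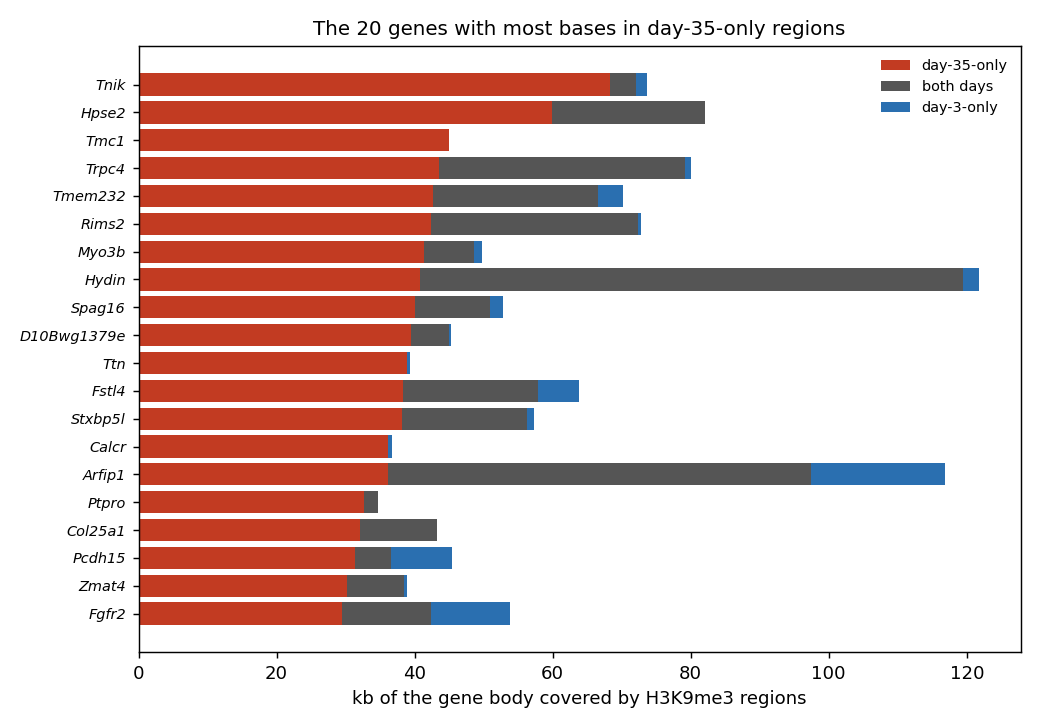
The 20 autosomal protein-coding genes with the most bases in day-35-only H3K9me3 regions; the horizontal axis gives kb of the gene body covered by day-35-only, both-day and day-3-only regions. Tnik has 68.2 kb of day-35-only regions, and at Tmc1, Ttn and Calcr nearly all covered bases are day-35-only.

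Calcr, the calcitonin receptor, known for its role in osteoclasts, had the largest covered share among these 20 genes. Its 79.0 kb body (chr6:3635677-3714713, minus strand) held 8 day-35-only regions covering 45.8%, 0 both-day regions and 1 day-3-only region of 0.5 kb, with H3K4me1, H3K27Ac and H3K36me3 at 0% at both days. With 20 kb on each side there were 13 regions, scoring from 17.9 to 346.1. The 2 highest lay in an intron (chr6:3687557-3693379) and upstream (chr6:3715487-3722648), both at 346.1, and the intron sequence is printed above. Genes of 10 kb or more were also ranked by percent of the body covered, a ranking added after the data were seen. Fcrl1, an Fc receptor-like protein of B cells, came first with 54.1%. The genes described next are a selection from those that followed. Gcet2, of germinal-centre B cells, had 37.9%, Gimap8, a GTPase of lymphocytes, 37.4%, and Cd5l, a secreted macrophage protein, 36.4%. Cd5l also held a both-day region over 28.3% of its body. Akap3, a sperm fibrous sheath anchor, had 31.3%, and Spaca7, a sperm acrosome gene, 30.4%. The ranking also held 9330159F19Rik (45.9%), Ankrd7 (40.4%), Agxt2l1 (34.9%), 4930432E11Rik (34.9%), 4930403N07Rik (33.2%), Zfp454 and Nmbr (29.7%). Whether any kind of gene was frequent in the ranking was not tested. Fcrl1, Gcet2 and Gimap8 had 0% H3K4me1, H3K27Ac and H3K36me3 at both days. Agxt2l1 had H3K4me1 over 15.5% of its body at day 35.

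**Figure D5:**
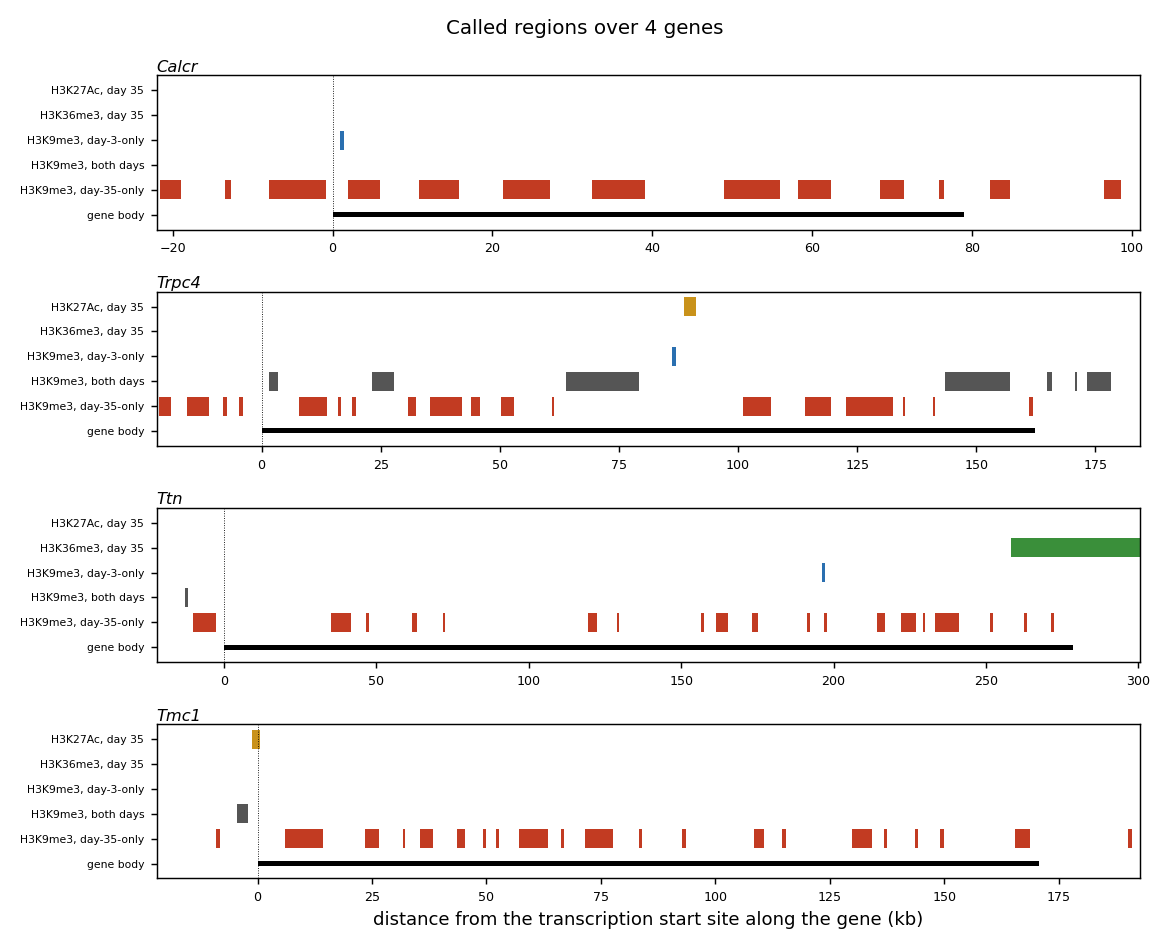
Called regions over Calcr, Trpc4, Ttn and Tmc1, chosen after seeing the data, with distance from the TSS along the gene in kb on the horizontal axis and 1 row each for the gene body, the 3 classes of H3K9me3 regions, H3K36me3 at day 35 and H3K27Ac at day 35. Calcr holds 8 day-35-only regions and 0 both-day regions, Tmc1 holds 19 and 0, and Trpc4 holds 14 beside 4 both-day regions.

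Of the 20 highest-scoring regions, 15 had an intergenic centre, 4 an intronic one and 1 lay near a TSS. After chromosome 9 (chr9:2999929-3010795, score 1391.4, at Gm10722 and Gm11168) came a region 10.8 kb from the start of Dux, the transcription factor gene of the early embryo (chr10:57668560-57682379, 616.4), and one 62.4 kb upstream of Frmd4b (chr6:97626061-97633715, 531.6). A region over the end of Tnik, 17.0 kb upstream of the glucose transporter gene Slc2a2 (chr3:28571668-28588051), had 452.9. Others were near Mtap9 (447.2), Olfr1402 (427.2 and 351.0), Lrrc3 and overlapping Trpm2 (413.0), 4930403N07Rik (410.5), Olfr19 (405.6), Tmc2, a relative of Tmc1 (388.5), Actrt2 (378.3) and Begain (365.7). Trpc4 (349.4), Rgs6 (347.7), Sirpa (346.1) and D19Bwg1357e (340.4) closed the list beside Calcr. The region near Olfr19 was the widest of all at 18863 bp (chr16:16672386-16691248). The 10 widest also included one 12.5 kb upstream of the zinc finger gene Zfp946 (12546 bp), one over the carboxylesterase genes Ces1d and Ces1e (12328 bp) and one 205 kb downstream of the Pdgfra start (12169 bp).

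Gene families differed in which class of H3K9me3 region they held. Of 383 zinc finger genes, the family best known for H3K9me3, 28 held a day-35-only region (7.31%, interval 5.11 to 10.4, against 9.23% of all genes), while 129 held a both-day region (33.7%, against 11.2%). Of 39 Hox genes 0 held a day-35-only region and 14 a both-day region. Of 98 cytochrome P450 genes, 22 held a day-35-only region (22.4%, 15.3 to 31.7) and 9 each a both-day and a day-3-only region; 8 of the 15 Cyp2c genes of liver drug metabolism were among them, Cyp2c55 leading with 6.13 kb. Keratin genes had 13 of 100 with a day-35-only region and 4 with each other class, and Krt2 had 57.3% of its body covered. Vomeronasal receptors had 14 of 326, 11 of them among the 124 Vmn2r genes, with 1 for both-day and 2 for day-3-only regions. Olfactory receptors had 20 of 1106, 3 and 0. Defensins had 6 of 53, 1 and 3, serpins 3 of 59, 2 and 3, clustered protocadherins 1 of 24 and histone genes 0 of 67. Receptor genes are short, with a median of 0.961 kb for olfactory receptors, so counts are not compared between families of different length.

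The genes that write, bind or remove H3K9me3 held no day-35-only region, in 0 of 19 writers and partners (upper bound of the interval 16.8%) and 0 of 12 readers and demethylases (24.2%). The bone lists were likewise without one, in 0 of 18 osteoblast (17.6%) and 0 of 13 osteocyte genes (22.8%), as were 0 of 9 housekeeping genes (29.9%). Each of these bounds lies above the 9.23% of all genes. These 5 lists were not free of H3K9me3. In the same order, 2, 0, 2, 3 and 0 of their genes held a both-day region and 5, 4, 9, 5 and 1 a day-3-only region. Of 28 germline genes, 9 held one (32.1%, 17.9 to 50.7), 8 a both-day region and 13 a day-3-only region: Mael, a piRNA pathway gene, had 3 regions over 28.3% of its body with no other H3K9me3 region, while Stk31, Sycp1, Rnf17, Nlrp4f, Asz1, Dazl, Ddx4 and Tdrd1 had between 0.5 and 3.72 kb. Dazl and Ddx4 had H3K27Ac over 49.3% and 30.2% of the body at day 3 and over 24.8% and 9.56% at day 35. Of 32 imprinted genes, Grb10 (0.5 kb) and Rtl1 (0.984 kb) held one, and 10 held a both-day region. Among other lineages, a day-35-only region lay in 3 of 6 endothelial genes (Tek, Vwf and Cdh5). The same held for 2 of 9 haematopoietic and osteoclast genes (Ptprc with 11.2 kb and Cd3e with 1.28 kb). Next came 1 of 8 neural genes (Rbfox3 with 14 regions and 12.3 kb) and 1 of 8 myogenic genes (Pax7). The last were 1 of 9 chondrocyte genes (Sox5) and 1 of 8 adipocyte genes (Lpl). In this order, both-day regions lay in 2, 0, 5, 1, 2 and 0 genes of the 6 lists. Day-3-only regions lay in 2, 0, 2, 3, 4 and 1. Sox5 held 9 both-day and 16 day-3-only regions beside its 1 day-35-only region of 0.5 kb. Pax7 held 1 day-35-only region beside 2 of each other class. Lpl, lipoprotein lipase, had 2 regions of 1.74 kb in all and H3K36me3 over 0% of its body at day 3 and 45.5% at day 35; both regions (chr8:71416637-71417743, score 28.5, and chr8:71421588-71422215, score 20.4) were intronic and overlapped that H3K36me3. With lists this short the intervals are wide. The share of genes with a day-35-only region was 2.07% under 10 kb, 7.56% from 10 to 50 kb, 19.99% from 50 to 200 kb and 46.7% above, and the median length was 71.0 kb for the endothelial, 34.8 kb for the germline, 11.3 kb for the osteoblast and 13.1 kb for the osteocyte list. Of the vitamin D enzymes, looked at after the data were seen, Cyp24a1, which breaks the hormone down, held 1 region of 500 bp at the lowest score of the list, 8.6 (chr2:170309467-170309966, 12.9 kb into the gene), and Cyp2r1, a 25-hydroxylase of the liver, held 1 of the same width and score (chr7:121702860-121703359); Cyp27a1 and Cyp27b1 held 0.

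Few VDR and RXR peaks lay in the regions, which cover 1.01% of the sequenced autosomes. With vehicle, 2 of 286 and 2 of 333 VDR peaks overlapped a region (0.650% ± 0.0698, SD, n = 2), and with 1,25(OH)2D3 2 of 1592 and 1 of 1312 (0.101% ± 0.0349, n = 2). RXR gave 3 peaks in each library, of 6800 and 4069 with vehicle (0.0589% ± 0.0209, n = 2) and of 10232 and 7573 with the hormone (0.0345% ± 0.00728, n = 2). The exact two-sided permutation test of 2 libraries against 2 gave p = 0.3333 for both factors, the smallest this design allows. Every library had between 1 and 3 such peaks, while the number of peaks called ran from 286 to 10232. The peaks fell in 4 regions. One, 284 kb upstream of Pxmp3 (chr3:5860329-5861081, score 161.8), had a peak called in 7 of 8 libraries. One in an intron of Cdk8 (chr5:147072243-147073171, 158.6) had a peak in 8 of 8. One near Ddx18 (chr1:124253577-124254203) had it in 1 and one in an intron of Nrcam (chr12:45629009-45629508) in 3. The regions near Pxmp3 and in Cdk8 had peaks with vehicle and with hormone and were acetylated at both days. Whether their signal is specific to the receptors was not tested. With vehicle the intervals of the VDR shares were 0.192% to 2.51% and 0.165% to 2.16%, so they include the share of sequence. Both-day regions, 1.08% of the sequence, held 0.377% to 1.40% of VDR peaks and 0.0782% to 0.123% of RXR peaks, and day-3-only regions, 0.837% of the sequence, held 1.32% to 1.88% of the peaks of each library.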

How the data were processed

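Regions called from chromatin immunoprecipitation with sequencing were taken from the authors' deposited lists, 1 per library, with chromosome, start, end and a score; the score is the authors' own, with its scale not given in the sources used here. Bowtie, HOMER and mm9 are named in the submitters' processing notes, with versions, parameters and the use of the 2 input samples not given in the sources used here. Region lists were compared with Python 3.11.15, numpy 2.4.6 and pandas 2.3.3 by an overlap of at least 1 bp, after tests on simulated intervals against bedtools 2.31.1. Coordinates are 1-based. Genes are those of GENCODE M1, 1 model per symbol (21281 autosomal symbols), and sequence is the NCBIM37 (mm9) assembly, whose file marks no repeats, so the planned repeat share was not computed. Regions were classed by their centre. The members, gene lists and families were chosen with earlier results of these data known. Genes were named by rule: those at the 20 highest-scoring and 10 widest regions, the 20 with most covered bases, the leading gene of each family and each listed gene overlapped; others are said to be chosen after seeing values, and 1 gene that the rule names is not reported here. Of 195 listed symbols 179 were found on autosomes. Shares have 95% Wilson intervals and medians order-statistic intervals; no test compares the days. The factor libraries were compared by an exact permutation test; nothing in the labels says whether equal replicate numbers share a culture.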

Additional observations from a re-analysis of the deposited data

How the results depend on the processing

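The set is as large as the rule makes it. The share of day-35 regions that were day-35-only (63.6%) was 62.4% with no day-3 region within 1 kb, 56.1% within 5 kb, 72.6% when a day-3 overlap of under 50% of the region was not counted, 63.0% for the higher-scoring 50% of both lists, 48.4% for the higher-scoring 50% of the day-35 list against the whole day-3 list, 62.0% with lists limited to equal numbers and 47.9% for regions of at least 1 kb. The number of regions went from 21490 to 10627, 8170 and 6277 under the 2 score limits and the 1 kb limit, and to 9384 for regions of 500 bp, a setting added after seeing the data; the 1 kb limit left 15.1 Mb. Under the same day-35 score limit, 1 kb limit and 500 bp limit, 1116, 896 and 1284 genes held a region instead of 1965. The share with any of the other 8 marks (2.30%) was 2.00% with no day-3 region within 5 kb, 3.11% with the 50% overlap, 3.50% and 2.67% under the 2 score limits, 2.80% at 1 kb or more, 2.68% with the chromosome 10 intervals kept, 1.33% when the mark had to cover 50% of the region and 1.95% at 500 bp. The median GC content (40.5%) was 40.2% within the 5 kb limit, 41.0% and 40.8% under the score limits and 40.2% at 500 bp. Merging regions closer than 1 kb changed nothing, since neighbouring regions lay at least 2 kb apart. The intergenic share stayed within its interval in each of these settings. Of 479 further values of single marks, genomic classes, families and lists under these settings, 334 stayed within their interval or within 1.5 times the count. Of VDR peaks with the hormone, 0.198% of the higher-scoring 50% fell in a region. Leaving out either replicate gave 0.601% to 0.699% for VDR with vehicle, 0.0762% to 0.126% with the hormone, and 0.0441% to 0.0737% and 0.0293% to 0.0396% for RXR. With the replicate block, the pairing of equal numbers, hormone minus vehicle was -0.549 points for VDR and -0.0245 for RXR, the same as without it. The depth of the H3K9me3 libraries, not given in the sources used here, limits what the absence of a day-3 call can show.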
